A study of Mus musculus with 11 samples.

Results

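The genes described here make, sense and export cholesterol and fatty acids in mouse T cells. The set was a list of 35 named genes, chosen by function. They were 7 mevalonate and isoprenoid enzymes, 11 squalene and sterol enzymes, 5 SREBP factors and retention proteins, 8 fatty acid genes and 4 genes of the liver X receptors and sterol exporters. Each gene was read from its probe set of highest mean level among those carrying exactly 1 gene symbol. That gave values for 33 of the 35 genes, out of 18194 genes on the arrays. Acat2 and Nr1h2 had no value under this rule.

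Splenic T cells from female mice aged 3 to 4 months were purified by negative magnetic selection, and 100 ng of total RNA per sample was hybridised to 1 one-colour array each. The wild-type groups came from C57BL6 mice and the knockout groups from C57BL6 crbn-/- mice, which lack cereblon, a ubiquitin ligase receptor bound by thalidomide. Naive cells were collected without activation (3 wild-type and 3 knockout arrays). Activated cells (2 wild-type and 3 knockout arrays) had received plate-bound anti-CD3 at 5 µg/ml and soluble anti-CD28 at 1 µg/ml for 12 hours. The labels name no group cultured without these antibodies, so antibody and culture effects cannot be told apart. How much of the gene was deleted is not known here.

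Cells build cholesterol from acetyl-CoA through mevalonate, isoprenoid units, squalene and a series of sterol intermediates. SREBP transcription factors turn on the genes of this pathway and of fatty acid synthesis. SCAP escorts them out of the endoplasmic reticulum when sterol is low, and INSIG proteins hold them there when sterol is high. Liver X receptors respond to oxidised sterols and turn on the export pumps ABCA1 and ABCG1. A T cell that prepares to divide needs new membrane, and lipid synthesis is a known part of its activation programme.

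Values are log2 expression levels as deposited, and a difference of 1 log2 is a 2-fold change. A gene is called higher or lower where its limma p-value, adjusted by Benjamini-Hochberg over all 18194 genes, is under 0.05. The median level of an array ran from 5.84 to 5.89, and precision is limited by how few arrays each group has. Crbn stood at 10.06, 10.21 and 10.09 in wild-type naive arrays and at 8.97, 9.07 and 8.91 in knockout naive arrays. In activated cells it stood at 9.71 and 9.47 in wild-type arrays and at 8.70, 8.77 and 8.58 in knockout arrays, so the genotypes did not overlap in either state. The 7 measured T cell markers were above the lowest array quartile (4.57) in every group. Their summed level was 14.84 to 14.99 log2 in naive and 14.08 to 14.28 log2 in activated arrays, while that of 7 activation markers went from 12.83 to 12.97 log2 up to 14.14 to 14.51 log2. Of these activation markers 5 were called higher and 1 lower in each genotype. Over all genes 20.2% were called higher and 20.9% lower in wild-type cells, and 20.7% and 22.4% in knockout cells. NK cell markers, summed over 3 genes, went from 11.45 to 11.84 log2 down to 9.56 to 10.14 log2, and their part in the results was not tested.

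Activation was accompanied by higher RNA for most of the sterol pathway in both genotypes. Of the 33 measured genes 18 were higher and 5 lower in wild-type cells, where 20.2% of all genes were called higher and 20.9% lower. In knockout cells 19 were higher and 5 lower, against 20.7% and 22.4% of all genes. At least 2-fold rises were seen in 10 of the 33 in wild-type cells (3.70% of all genes) and in 10 of the 33 in knockout cells (6.02% of all genes). The median difference over the 33 was 0.37 log2 in wild-type and 0.45 log2 in knockout cells, beside 0.06 and -0.03 log2 over all genes. A total of 17 genes rose in both genotypes, 4 fell in both, and 0 were called in opposite directions. The genes called lower were 3 in wild-type cells without wild-type activated replicate 1 or wild-type naive replicate 1 or 3, and 2 in knockout cells without knockout activated replicate 1 or 3. In RNA from a cell mixture, fewer cells of a type and less RNA per cell cannot be told apart.

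**Figure D1:**
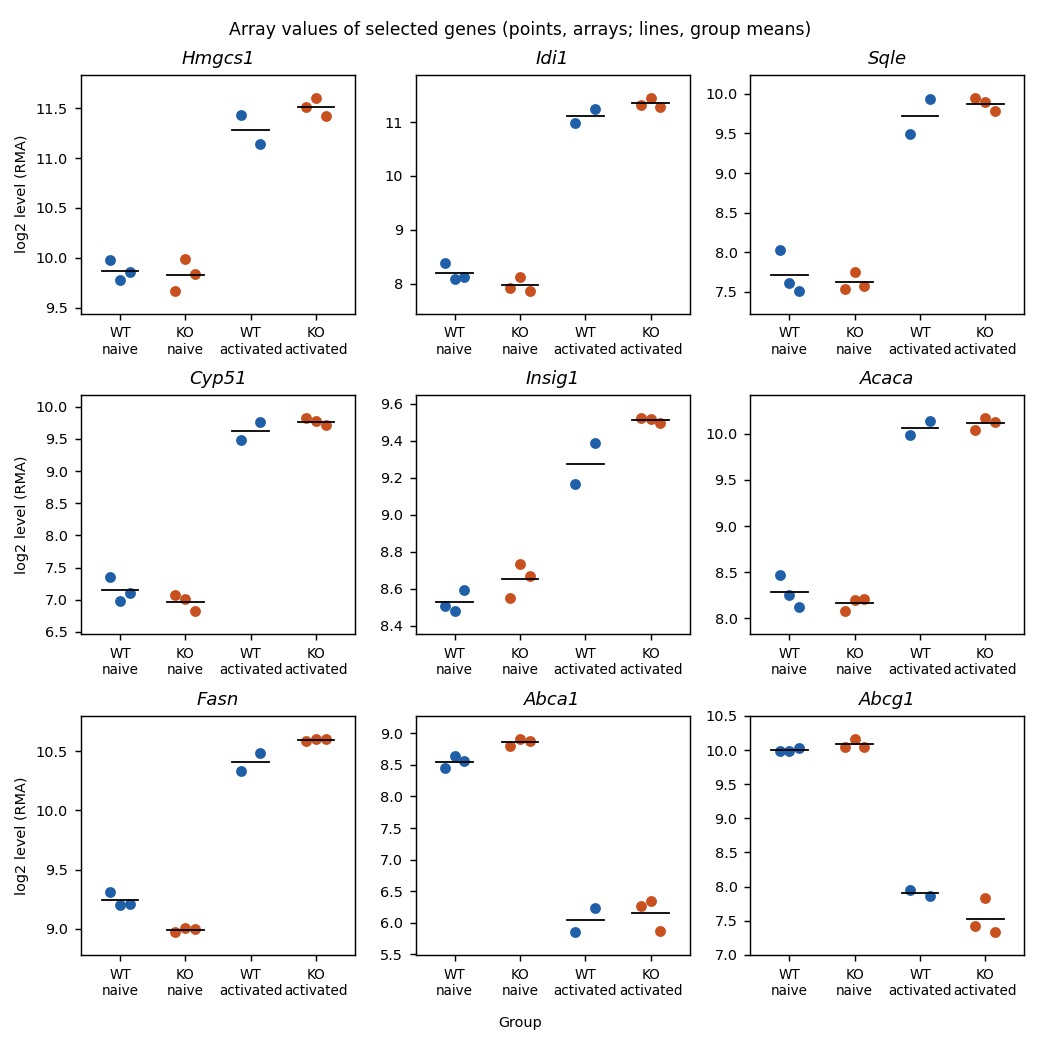
Log2 level of 9 genes in each of the 11 arrays, with groups on the x axis (WT, wild type; KO, knockout), blue for wild type and orange for knockout; lines are group means and each panel has its own y axis. Activated arrays lie above all naive arrays for Hmgcs1, Idi1, Sqle, Cyp51, Insig1, Acaca and Fasn, and below them for Abca1 and Abcg1.

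Among the mevalonate enzymes 5 of 6 rose in each genotype. Idi1, which isomerises the isoprenoid unit isopentenyl diphosphate, changed most. Its level was 8.38, 8.08 and 8.11 in wild-type naive arrays and 10.99 and 11.25 in wild-type activated arrays. In knockout cells it went from 7.92, 8.13 and 7.87 to 11.32, 11.45 and 11.28. Every activated array lay above every naive array, and the rise was 7.63-fold in wild-type (2.93 log2, SE 0.12, limma adjusted p = 2.2e-09) and 10.4-fold in knockout cells (3.38 log2, SE 0.10, limma adjusted p = 1.5e-10).

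Hmgcs1 encodes the cytosolic synthase that makes HMG-CoA, the precursor of mevalonate. Wild-type arrays read 9.98, 9.77 and 9.86 when naive and 11.43 and 11.14 when activated. Knockout arrays read 9.67, 9.98 and 9.84 when naive and 11.51, 11.60 and 11.42 when activated. The groups were again fully separate, with rises of 1.41 log2 (SE 0.11, limma adjusted p = 5.1e-07) and 1.68 log2 (SE 0.10, limma adjusted p = 2.1e-08). Its 4 other probe sets rose too, by 0.53 to 1.60 log2 in wild-type and by 1.26 to 1.60 log2 in knockout cells. Fdps, which joins isoprenoid units into farnesyl diphosphate, rose by 1.30 and 1.51 log2. The kinases Pmvk (0.56 and 0.88 log2) and Mvk (0.37 and 0.28 log2) rose less. The second Mvk probe set rose in wild-type cells (0.33 log2, limma adjusted p = 0.014 over all probe sets). In knockout cells that probe set was not called (-0.043 log2, limma adjusted p = 0.75 over all probe sets), so the knockout rise depended on the probe set. Mvk lost its call in knockout cells under 9 of 22 alternative settings, among them without knockout activated replicate 1 or 2, knockout naive replicate 2 or 3 and wild-type naive replicate 2 or 3. In wild-type cells it lost it under 4, among them without wild-type activated replicate 2 or wild-type naive replicate 1. Mvd, the decarboxylase between them and Idi1, was not called in either genotype (0.14 log2 in each).

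Of the 11 squalene and sterol enzymes 8 rose and 2 fell in wild-type cells, and 7 rose and 2 fell in knockout cells. Cyp51, the lanosterol 14-alpha-demethylase, went from 7.35, 6.98 and 7.11 to 9.49 and 9.77 in wild-type arrays. In knockout arrays it went from 7.08, 7.01 and 6.82 to 9.82, 9.77 and 9.72. These are rises of 2.48 log2 (SE 0.12, limma adjusted p = 9.0e-09) and 2.80 log2 (SE 0.11, limma adjusted p = 6.5e-10), without overlap between states.

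Sqle, the squalene epoxidase, read 8.03, 7.60 and 7.51 in wild-type naive arrays and 9.50 and 9.94 in wild-type activated arrays. The knockout values were 7.53, 7.75 and 7.57 in naive arrays and 9.95, 9.90 and 9.78 in activated arrays. It rose by 2.00 log2 (SE 0.15) and 2.26 log2 (SE 0.14), and wild-type naive replicate 1 was the highest of the 6 naive arrays. Fdft1, which makes squalene, rose by 1.20 and 1.43 log2, and Lss, which closes its epoxide into lanosterol, by 1.45 and 1.59 log2. Msmo1, the C4-methyl oxidase, rose by 1.58 and 1.72 log2. Smaller rises were those of the ketoreductase Hsd17b7 (0.98 and 0.96 log2) and the desaturase Sc5d (0.99 and 0.93 log2).

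The other 4 enzymes of this list differed less. Nsdhl, which acts between Msmo1 and Hsd17b7, rose in wild-type cells (0.37 log2, limma adjusted p = 0.011) and was not called in knockout cells (0.16 log2, limma adjusted p = 0.20). Its wild-type call was lost without wild-type activated replicate 2, and it was called in knockout cells without knockout activated replicate 3 (0.25 log2, limma adjusted p = 0.040). Ebp, the sterol isomerase, was not called (-0.20 and -0.18 log2), although quantile normalization again called it lower in knockout cells (-0.25 log2, limma adjusted p = 0.029). Dhcr7, which reduces 7-dehydrocholesterol to cholesterol, went from 8.87, 8.85 and 8.93 to 8.47 and 8.59 in wild-type arrays and from 8.64, 8.79 and 8.71 to 8.30, 8.63 and 8.13 in knockout arrays. All activated arrays of a genotype lay below its naive arrays, with differences of -0.35 and -0.36 log2 (limma adjusted p = 0.031 and 0.014). Leaving out any array of wild-type cells ended the wild-type call. The knockout call was lost without knockout activated replicate 1 or 3 or knockout naive replicate 2. Tm7sf2, a sterol C14-reductase, also fell (-0.37 and -0.24 log2, limma adjusted p = 0.0082 and 0.038). In knockout cells its call was lost under 9 of 22 settings, among them without any 1 of the 3 naive arrays, without activated replicate 1 or 3, and with each array centred on its median.

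**Figure D2:**
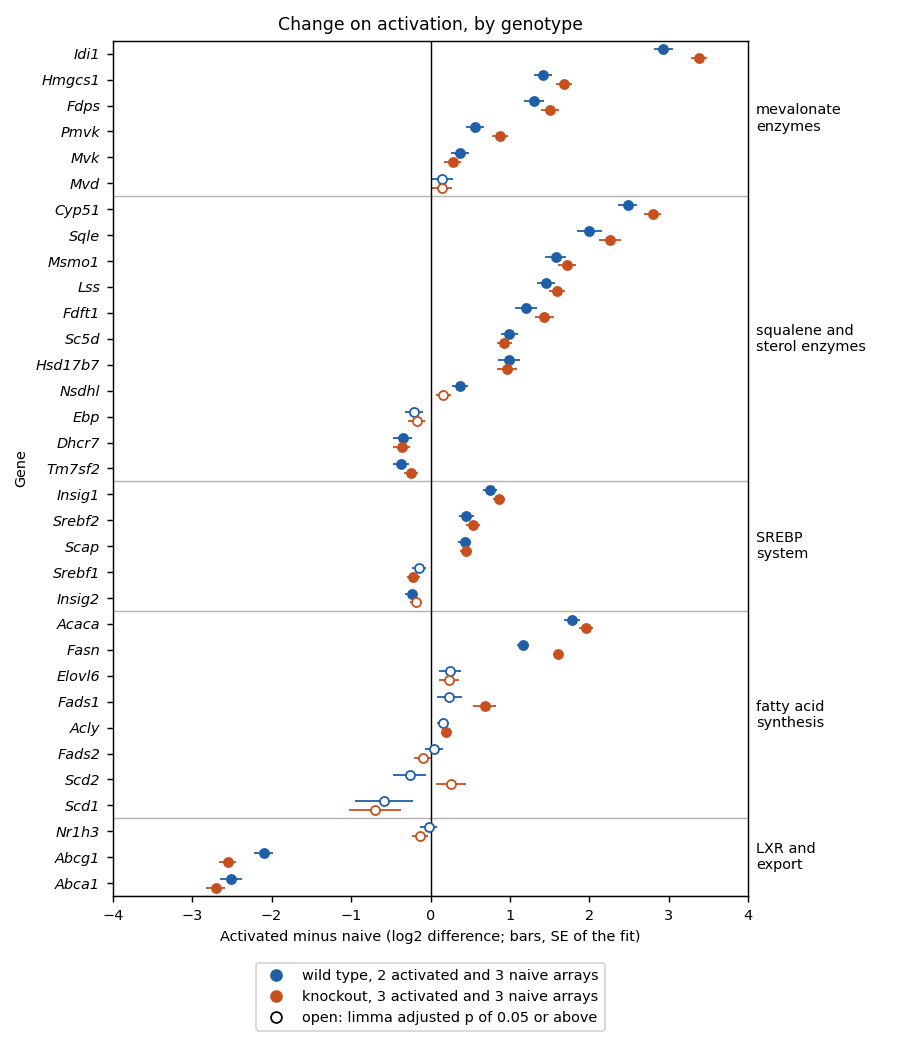
Activated minus naive log2 difference of the 33 genes, ordered by role and then by the wild-type value, in wild-type (blue) and knockout cells (orange); bars are the SE of the fit and open symbols were not called. The rises are led by Idi1 at 2.93 and 3.38 log2, Mvd and Ebp have open symbols, and Abca1 and Abcg1 stand apart at -2.10 log2 and below.

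Since 17 genes rose together in both genotypes, the sequence before their starts was searched. RefSeq start windows on GRCm38.p6, with 250 bases before and 50 after the annotated start, were given for 28 of the 35 genes. Fdps, Fdft1, Sqle, Scd1, Scd2, Fads1 and Abcg1 had no window. Motifs were counted on both strands, with no test, and a match is a run of letters and not a shown binding site. The sterol element core TCACCCCAC, a known SREBP target sequence, was found in the Hmgcs1 window alone, at positions -137 to -129 relative to the start, and in 0.551% of all 32851 windows. The looser form TCACNCCAC, which contains it, added 0 further genes of the 35 and was in 1.24% of all windows. Other forms of the sterol element were not searched for, so a window without a match is not shown to lack one. A CCAAT box, bound by NF-Y, was in 20 of the 28 genes, while 41.1% of the 27025 genes with a window had it. It was present in 12 of the 14 genes with a window that rose in both genotypes and in 8 of the 12 other measured genes. The GC box GGGCGG, bound by Sp1, was in 22 of the 28 genes and 38.2% of all genes, and the E-box CACGTG in 6 of 28 and 8.09% of all genes. Of the 14 that rose, 11 had a GC box and 4 an E-box, beside 10 and 2 of the 12 others. Matches of different motifs can share bases, and overlap was not tested over all windows.

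Shown are the windows of 4 genes that rose and, for contrast, that of the exporter Abca1, which fell. Each reads from 5′ to 3′ on the gene's own strand, and capitals mark a sterol core, a CCAAT box in either direction (CCAAT or ATTGG) or an E-box. Hmgcs1 is at chr13:119690101-119690400 on the plus strand, Idi1 at chr13:8885356-8885655 on the plus strand, Cyp51 at chr5:4104648-4104947 on the minus strand, Insig1 at chr5:28071162-28071461 on the plus strand and Abca1 at chr4:53159846-53160145 on the minus strand.
Hmgcs1: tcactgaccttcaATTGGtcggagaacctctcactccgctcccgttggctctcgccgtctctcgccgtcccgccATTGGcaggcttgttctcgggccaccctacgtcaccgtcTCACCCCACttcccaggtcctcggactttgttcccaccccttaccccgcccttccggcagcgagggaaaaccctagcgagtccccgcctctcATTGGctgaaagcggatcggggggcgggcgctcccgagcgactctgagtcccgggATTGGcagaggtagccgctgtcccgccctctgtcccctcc
Idi1: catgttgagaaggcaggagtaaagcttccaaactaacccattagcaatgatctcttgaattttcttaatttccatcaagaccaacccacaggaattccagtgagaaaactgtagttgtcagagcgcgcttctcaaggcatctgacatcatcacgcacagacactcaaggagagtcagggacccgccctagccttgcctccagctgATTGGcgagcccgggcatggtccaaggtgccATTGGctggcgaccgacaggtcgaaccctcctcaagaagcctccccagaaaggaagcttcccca
Cyp51: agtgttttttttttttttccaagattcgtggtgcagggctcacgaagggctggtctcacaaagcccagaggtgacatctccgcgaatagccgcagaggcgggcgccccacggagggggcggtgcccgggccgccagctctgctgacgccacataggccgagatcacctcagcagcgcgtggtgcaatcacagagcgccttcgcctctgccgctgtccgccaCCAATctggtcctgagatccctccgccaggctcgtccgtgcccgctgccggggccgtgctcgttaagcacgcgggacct
Insig1: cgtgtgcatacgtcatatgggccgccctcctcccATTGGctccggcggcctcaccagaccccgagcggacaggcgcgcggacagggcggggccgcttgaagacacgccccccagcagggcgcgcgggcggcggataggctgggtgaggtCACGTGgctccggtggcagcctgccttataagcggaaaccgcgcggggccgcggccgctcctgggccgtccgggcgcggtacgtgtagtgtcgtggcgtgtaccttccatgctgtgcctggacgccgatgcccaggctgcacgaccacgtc
Abca1: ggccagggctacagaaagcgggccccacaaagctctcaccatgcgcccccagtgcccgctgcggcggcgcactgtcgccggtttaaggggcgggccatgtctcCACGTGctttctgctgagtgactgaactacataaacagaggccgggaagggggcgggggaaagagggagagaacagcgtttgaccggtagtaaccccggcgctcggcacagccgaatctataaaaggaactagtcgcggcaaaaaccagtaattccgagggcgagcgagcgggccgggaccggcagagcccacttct
The Hmgcs1 window holds 4 CCAAT boxes, that of Idi1 2, and those of Cyp51 and Insig1 1 each. The Abca1 window has an E-box and no CCAAT box. Tm7sf2 and Dhcr7, which also fell in both genotypes and are not shown, do have a CCAAT box.

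In the SREBP system 3 of 5 genes rose and 1 fell in each genotype. Insig1, an SREBP target as well as an SREBP retention protein, read 8.51, 8.48 and 8.60 in wild-type naive and 9.17 and 9.39 in wild-type activated arrays. In knockout arrays it read 8.55, 8.74 and 8.67, then 9.52, 9.52 and 9.50. The rises were 0.75 log2 (SE 0.09, limma adjusted p = 1.2e-05) and 0.86 log2 (SE 0.08, limma adjusted p = 7.5e-07). Srebf2, the factor that mainly drives cholesterol genes, rose by 0.45 and 0.53 log2, and Scap, the escort, by 0.43 and 0.45 log2. The other Srebf2 probe set was not called (0.19 and 0.06 log2, limma adjusted p = 0.082 and 0.55 over all probe sets). Srebf1, which mainly drives fatty acid genes, differed by -0.14 log2 in wild-type cells (limma adjusted p = 0.23). It fell in knockout cells, by 0.22 on the log2 scale (limma adjusted p = 0.041), a call lost under 8 of 22 settings, among them centring and leaving out knockout naive replicate 2 or 3, knockout activated replicate 1 or 3 or wild-type naive replicate 2.

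Insig2, the other retention protein, depended on the probe set. Its brightest probe set fell by 0.24 on the log2 scale in wild-type cells (limma adjusted p = 0.030) and differed by -0.18 log2 in knockout cells (limma adjusted p = 0.062). Its 2 other probe sets rose instead, by 0.60 and 0.54 log2 in wild-type and by 0.47 and 0.99 log2 in knockout cells, all called over all probe sets. The wild-type fall was lost without wild-type activated replicate 1 or wild-type naive replicate 1 or 3, and in knockout cells the fall was called under 7 of 22 settings, among them without knockout naive replicate 3 or either wild-type activated array. No direction can therefore be given for the gene as a whole. Over the whole set the other probe sets of called genes ran the same way in 26 of 28 cases in wild-type cells, the 2 exceptions being those of Insig2, and in 28 of 32 cases in knockout cells, where 0 of the 4 others were called. These counts are of sign alone. Probe sets that ran the same way and were also called numbered 15 of the 28 and 20 of the 32.

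**Figure D3:**
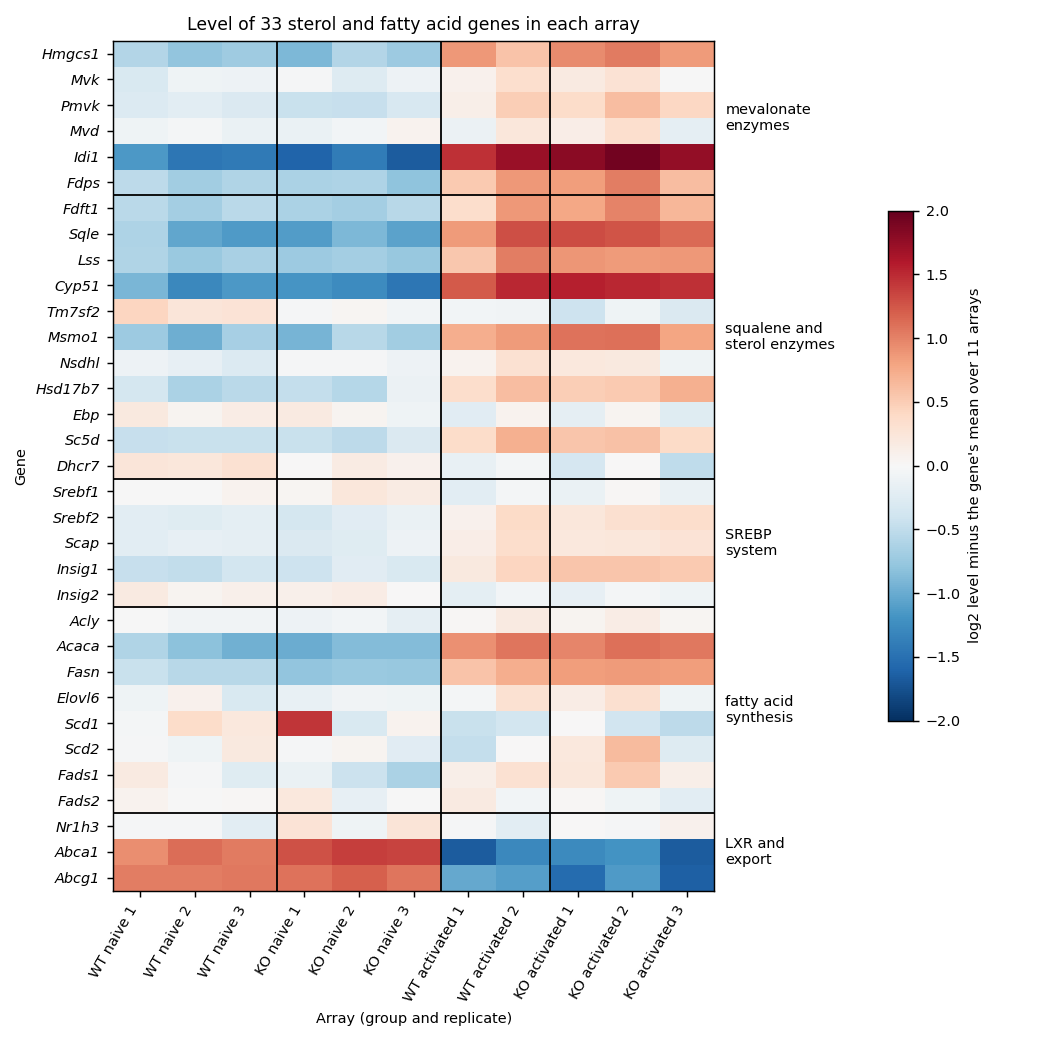
Level of the 33 genes (rows, by role) in the 11 arrays (columns, by group), each as the log2 level minus the gene's mean over all arrays; red is above and blue below that mean. The naive and activated blocks differ for the sterol enzymes and for Abca1 and Abcg1, and Scd1 in knockout naive replicate 1 (7.66) stands out within its group.

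Of the 8 fatty acid genes 2 rose in wild-type and 4 in knockout cells, and 0 fell in either. Acaca encodes acetyl-CoA carboxylase, which makes malonyl-CoA. It read 8.47, 8.25 and 8.11 in wild-type naive and 9.99 and 10.14 in wild-type activated arrays. The knockout arrays gave 8.07, 8.20 and 8.21 when naive and 10.04, 10.17 and 10.13 when activated. The rises, of 1.78 log2 (SE 0.10, limma adjusted p = 3.2e-08) and 1.96 log2 (SE 0.09, limma adjusted p = 2.5e-09), separated the states completely.

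Fasn, the fatty acid synthase, went from 9.32, 9.20 and 9.21 to 10.33 and 10.48 in wild-type arrays. The 3 knockout naive arrays lay between 8.97 and 9.01 and the 3 knockout activated arrays between 10.59 and 10.60. It rose by 1.17 log2 (SE 0.07, limma adjusted p = 8.0e-08) and 1.60 log2 (SE 0.07, limma adjusted p = 1.0e-09). Acly, which supplies cytosolic acetyl-CoA, stood at 11.18 to 11.35 in naive and 11.39 to 11.55 in activated arrays. It differed by 0.16 log2 in wild-type cells and rose by 0.20 log2 in knockout cells (limma adjusted p = 0.13 and 0.037), the latter lost under 8 of 22 settings, among them without knockout naive replicate 1 or 3, without any knockout activated array or without wild-type naive replicate 2. The next brightest Acly probe sets were called higher in both genotypes over all probe sets. They rose by 0.23 and 0.39 log2 in wild-type and by 0.21 and 0.50 log2 in knockout cells. Those at lower levels were not called. Whether Acly is called in wild-type cells therefore depended on the probe set.

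Elongation and desaturation genes were mostly not called. The delta-5 desaturase Fads1 rose in knockout cells (0.68 log2, limma adjusted p = 0.0014) and differed by 0.24 log2 in wild-type cells (limma adjusted p = 0.27). The difference between these responses was 0.44 log2 with a limma adjusted p of 0.38. The second Fads1 probe set changed by 0.23 log2 in wild-type and 0.28 log2 in knockout cells (limma adjusted p = 0.054 and 0.011 over all probe sets). There the responses differed by 0.04 log2 (limma adjusted p = 0.89 over all probe sets). Elovl6 (0.24 and 0.23 log2), Fads2 (0.04 and -0.10 log2) and Scd2 (-0.26 and 0.26 log2) were not called in either genotype, though Scd2 was called higher in knockout cells without knockout activated replicate 3 (0.49 log2, limma adjusted p = 0.030). The second brightest probe sets of Scd2 and Elovl6 were called higher in knockout cells with all arrays (0.62 and 0.25 log2, limma adjusted p = 0.014 and 0.047 over all probe sets). In wild-type cells they were not called (-0.0060 and 0.23 log2). The mean of the Scd2 probe sets was also called in knockout cells.

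Scd1, a stearoyl-CoA desaturase, read 6.19, 6.61 and 6.44 in wild-type naive arrays and 7.66, 5.93 and 6.31 in knockout naive arrays. Wild-type activated arrays read 5.79 and 5.86, and knockout activated arrays 6.24, 5.85 and 5.71. It was not called (-0.59 and -0.70 log2), and its spread was set by knockout naive replicate 1. Without that array the wild-type difference of -0.59 log2 was called (limma adjusted p = 0.013), and the knockout difference was -0.18 log2 (limma adjusted p = 0.43). Without knockout naive replicate 2 the knockout difference was -1.05 log2 and was called (limma adjusted p = 0.013). Knockout naive replicate 1 also had the highest summed level of B cell markers (11.54 log2, other naive arrays 10.19 to 10.82), macrophage markers (10.61 log2, others 9.91 to 10.33) and neutrophil markers (10.50 log2, others 8.58 to 9.27). The part of these cells in the Scd1 value was not tested.

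Of the 3 measured receptor and export genes 2 fell in each genotype, both of them exporters. Abca1, which loads cholesterol onto lipid-poor apolipoproteins, read 8.45, 8.64 and 8.56 in wild-type naive arrays and 5.86 and 6.23 in wild-type activated arrays. Knockout arrays read 8.79, 8.91 and 8.88 when naive and 6.26, 6.34 and 5.86 when activated. It differed by -2.51 log2 (SE 0.14, limma adjusted p = 2.4e-08) and -2.71 log2 (SE 0.12, limma adjusted p = 2.1e-09), which is 5.69-fold and 6.53-fold lower. Its 2 other probe sets, at lower levels, did not show a change of that size (-0.23 and -0.13 log2 in wild-type and -0.53 and -0.14 log2 in knockout cells, of which the -0.53 log2 was called). Abcg1, which exports sterol to lipoprotein particles, went from 9.99, 9.99 and 10.03 to 7.94 and 7.86 in wild-type arrays. In knockout arrays it went from 10.05, 10.16 and 10.05 to 7.43, 7.83 and 7.33. Its differences of -2.10 log2 (SE 0.12, limma adjusted p = 3.2e-08) and -2.55 log2 (SE 0.11, limma adjusted p = 1.1e-09) again left no overlap, and its second probe set fell as well (-2.33 and -2.35 log2).

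These were the 2 falls of at least 2-fold among the 33 genes in each genotype, where 5.61% of all genes in wild-type and 5.86% in knockout cells fell that far. Nr1h3, a liver X receptor, stood between 5.94 and 6.44 in all 11 arrays and was not called (-0.02 and -0.13 log2). Without knockout naive replicate 2 it was called lower in knockout cells (-0.25 log2, limma adjusted p = 0.043). Macrophages express Abca1, Abcg1 and Nr1h3. Of 10 macrophage markers 6 were also lower after activation in each genotype, where 20.9% of all genes in wild-type and 22.4% in knockout cells were. The summed level of the 10 markers was 9.91 to 10.61 log2 in naive and 9.27 to 9.52 log2 in activated arrays. Of the 10 markers Itgam lay below the lowest array quartile in all 11 arrays and Mrc1 in 9 of them. The others lay above it, with Tyrobp at a mean of 7.85, Fcer1g at 7.74, Csf1r at 7.49 and Lyz2 at 6.76 in wild-type naive cells. Tyrobp and Fcer1g fell by 1.52 and by 1.08 on the log2 scale in wild-type cells, the largest falls of the 10. Csf1r fell less (-0.35 log2), and Lyz2 was not called (-0.28 log2, limma adjusted p = 0.67). The median over the 10 was -0.41 log2 in wild-type cells. B cell markers fell at 4 of 7 in wild-type and 5 of 7 in knockout cells, to be read against the same shares of all genes. Their summed levels were 10.19 to 11.54 log2 in naive and 9.26 to 10.33 log2 in activated arrays. The part of these cells in the export result was not tested.

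Naive arrays also differed in red cell precursor markers. The summed level of 6 erythroid markers was 13.14, 12.09 and 11.12 log2 in wild-type naive arrays and 11.63, 10.08 and 9.53 log2 in knockout naive arrays. In activated arrays it was 9.61 and 9.72 log2 in wild-type and 10.02, 9.38 and 8.95 log2 in knockout cells. Of these markers 4 of 6 were lower after activation in wild-type and 2 of 6 in knockout cells, beside 20.9% and 22.4% of all genes. Of the 17 genes that rose in both genotypes, 10 were highest in wild-type naive replicate 1 among the wild-type naive arrays, where 35.5% of all genes had their highest value. In knockout naive replicate 1, the highest in erythroid signal of its group, 2 of the 17 had their highest value (33.9% of all genes). Fads1 ordered as the erythroid sum did, at 7.51, 7.30 and 7.09 in the wild-type naive arrays and at 7.20, 6.91 and 6.70 in the knockout ones. Nsdhl had that order too, at 8.24, 8.18 and 8.06 and at 8.33, 8.32 and 8.24. Both were picked out after their values were seen, and the share of all genes with this order was not counted. Without wild-type naive replicate 1 the wild-type comparison still called 17 genes higher and 3 lower. The summed level of 8 proliferation markers had the same order within both naive groups (13.67, 13.32 and 13.18 log2, then 13.22, 12.93 and 12.79 log2). On activation 3 of these 8 were called higher and 5 lower in wild-type cells, beside 20.2% and 20.9% of all genes. In knockout cells 3 were called higher and 2 lower, beside 20.7% and 22.4% of all genes. The part of erythroid or proliferating cells in the order of Fads1 and Nsdhl was not tested.

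Genes around the pathway moved in both directions. The lists were chosen by function, and 48 of their genes were measured, of which 15 rose and 16 fell in wild-type cells and 15 rose and 17 fell in knockout cells. Over all genes 20.2% rose and 20.9% fell in wild-type cells and 20.7% and 22.4% in knockout cells, and the counts of each list are to be read against these shares. The median difference of the 48 was near 0 in both (-0.0011 and -0.029 log2). In uptake and lysosomal release 4 of 10 rose and 4 fell in wild-type cells, and 3 rose and 4 fell in knockout cells. The lipoprotein receptor Scarb1 rose by 0.92 and 1.50 log2. Lipa, the lysosomal lipase that frees cholesterol from its esters, fell (-1.74 and -1.81 log2). Mylip, a liver X receptor target whose product degrades lipoprotein receptors, fell (-1.38 and -1.67 log2).

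Among other synthesis genes 5 of 10 rose and 3 fell in wild-type cells, and 6 rose and 3 fell in knockout cells. Slc25a1, the mitochondrial citrate carrier that feeds Acly, rose by 0.90 and 1.23 log2. Acss2, which makes acetyl-CoA from acetate, fell from a mean of 9.52 to 6.78 in wild-type cells and from 9.48 to 6.46 in knockout cells, the largest change among these 48 genes. The elongase Elovl1 rose by 0.87 and 0.86 log2 while Elovl5 fell (-0.80 and -1.15 log2). Of the SREBP proteases, INSIG-degrading factors and RXR partners, 1 of 6 rose and 3 fell in each genotype. The SREBP protease Mbtps2 rose (0.57 and 0.65 log2), and Rxrb, a partner of the liver X receptors, fell (-0.30 and -0.40 log2).

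In storage 2 of 4 genes rose and 1 fell in each genotype. Dgat2, a triglyceride synthase, rose by 1.13 and 0.85 log2, and the lipid droplet coat gene Plin2 fell (-0.79 and -0.55 log2). Among users of isoprenoids 3 of 6 rose and 1 fell in each genotype, with the dolichol gene Dhdds at 0.85 and 0.98 log2 and the ubiquinone gene Pdss2 at 0.60 and 0.69 log2. Fatty acid oxidation had 0 of 8 higher and 4 lower in each genotype. Cpt1a, which controls fatty acid entry into mitochondria, fell (-1.76 and -1.88 log2), as did Acadl, an acyl-CoA dehydrogenase (-0.84 and -0.74 log2). Of 4 oxysterol enzymes 0 were called by limma in wild-type cells, and 1 had an unadjusted p under 0.05, as 47.8% of all genes did. Ch25h and Cyp7b1, which were among the 4, lay below the lowest array quartile in all 11 arrays. Cyp27a1 fell by 0.25 on the log2 scale in knockout cells.

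**Figure D4:**
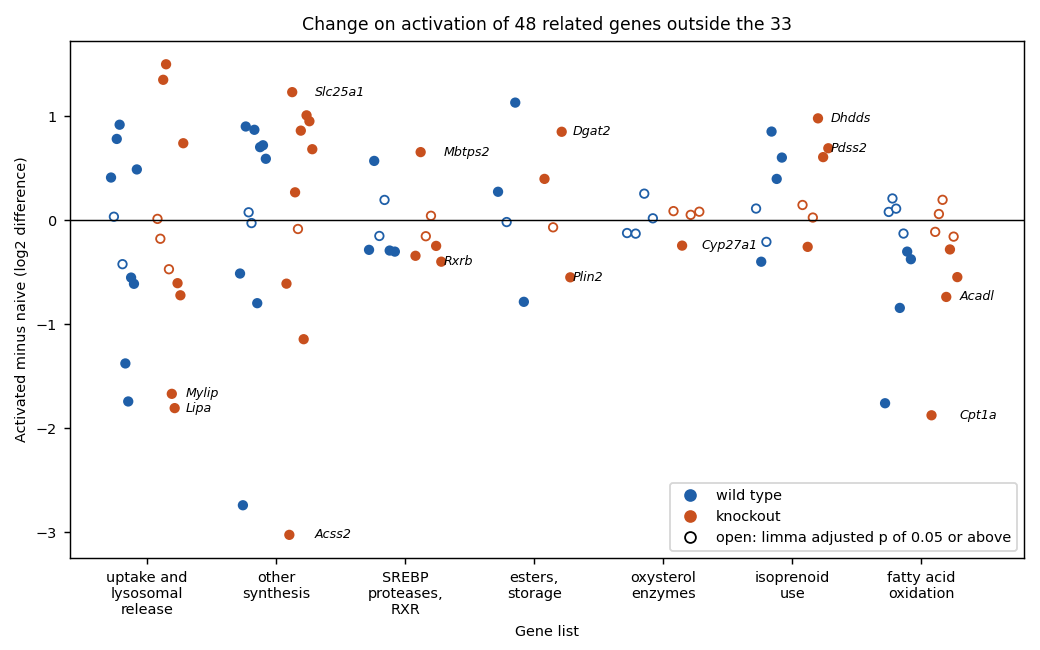
Activated minus naive log2 difference of 48 genes around the pathway, by list, in wild-type (blue) and knockout cells (orange); each point is a gene, open points were not called, and up to 2 called genes of largest knockout change are named per list. Acss2 (-2.74 and -3.03 log2) lies lowest, and all called genes of fatty acid oxidation lie below 0.

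Loss of cereblon was not accompanied by a called difference in these genes. In naive cells 0 of the 33 were called by limma, where 0.148% of all genes were. An unadjusted p under 0.05 was found for 5 of the 33, near the 14.5% of all genes. In activated cells 0 were called by limma, where 0.0605% of all genes were, and 3 of the 33 had an unadjusted p under 0.05, beside 6.90% of all genes. Knockout minus wild-type differences had a median of -0.03 log2 when naive and 0.08 log2 when activated, beside 0.0063 and -0.018 log2 over all genes. These comparisons use the same arrays as those of activation. Over the 33 genes the 95% intervals reached from -0.68 to 0.92 log2 in naive and from -0.68 to 0.89 log2 in activated cells, the widest being those of Scd1, so smaller differences are not excluded. For Hmgcs1 the interval was -0.26 to 0.18 log2 in naive and -0.02 to 0.47 log2 in activated cells.

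**Figure D5:**
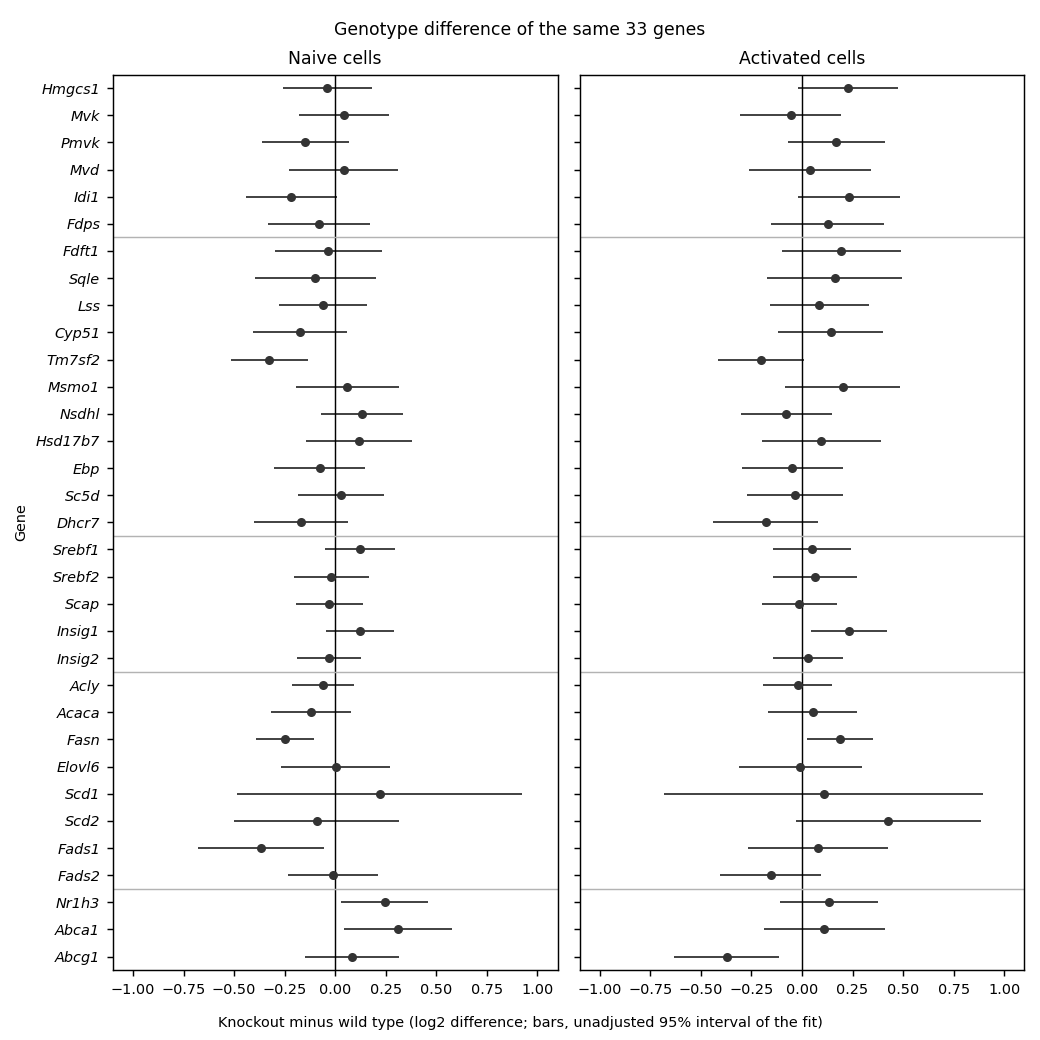
Knockout minus wild-type log2 difference of the 33 genes in naive (left) and activated cells (right), with unadjusted 95% intervals of the fit. Most intervals cross 0, and those of Fasn, Tm7sf2, Fads1, Nr1h3 and Abca1 in naive and of Insig1, Fasn and Abcg1 in activated cells do not, although 0 of these 33 genes passed after adjustment over all genes.

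Some genes had arrays that did not overlap between genotypes without being called. In naive cells these were 2 genes higher in the knockout, Abca1 and Abcg1, and 4 lower, Pmvk, Tm7sf2, Dhcr7 and Fasn, where 9.94% of all genes were higher and 10.4% lower without overlap. In activated cells 3 were higher, Idi1, Insig1 and Fasn, and 2 lower, Tm7sf2 and Abcg1, against 7.37% and 12.0% of all genes. Fasn was below wild type in naive knockout cells (-0.25 log2, SE 0.07, limma adjusted p = 0.16) and above it in activated ones (0.19 log2, SE 0.07, limma adjusted p = 0.64). With array quality weights Fasn (-0.21 log2, limma adjusted p = 0.027) and Tm7sf2 (-0.26 log2, limma adjusted p = 0.045) were called lower in naive knockout cells. Without knockout activated replicate 2 Abcg1 was called lower in activated knockout cells (-0.52 log2, limma adjusted p = 0.039), from -0.37 log2 with all arrays.

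The size of the activation response was also compared between genotypes, as an interaction. Of the 33 genes 0 were called by limma, as were 0 of all genes. An unadjusted p under 0.05 was found for 3 of the 33, beside 13.8% of all genes, so the count does not stand out. The 3 were Idi1 (0.45 log2 more in the knockout, limma adjusted p = 0.29), Fasn (0.44 log2 more, SE 0.10, limma adjusted p = 0.21) and Abcg1 (-0.46 log2, limma adjusted p = 0.29). The second probe set gave 0.67 log2 for Idi1 and -0.01 log2 for Abcg1 (limma adjusted p = 0.25 and 0.98 over all probe sets). The adjusted p of Fasn lay between 0.11 and 0.40 under the alternatives. The knockout change was the higher in 20 of the 33 genes, where it was in 45.0% of all genes. This leaned on the pair of wild-type activated arrays. Replicate 1 was below replicate 2 in 28 of the 33 (53.4% of all genes) and in 16 of the 17 that rose in both genotypes. Without replicate 1 the knockout change was the higher in 12 of the 33, without replicate 2 in 27, and after quantile normalization again in 16.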

How the data were processed

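Expression of splenic T cells was measured on 11 one-colour Affymetrix arrays, 1 per sample. The submitters' processing notes name GCOS, RMA and Partek, without versions. The authors' deposited log2 values of 45101 probe sets were used unchanged. The platform annotation named 34958 probe sets with 1 gene symbol, 932 with several and 9211 with none. Of the first kind 34754 had an Entrez number found in the RefSeq table of GRCm38.p6, and 0 symbols changed. The brightest probe set stood for each of 18194 genes.

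The genes, lists, tests and alternatives were chosen with earlier results of these data known. Differences came from limma 3.58.1 in R 4.3.3, fitted to all genes and all 4 groups (residual degrees of freedom 7, prior 5.46), with Benjamini-Hochberg adjustment. The fit was tested on simulated data. All 35 genes, Crbn, and up to 3 called genes per related list and comparison were eligible for naming, and others were chosen after their values were seen. The labels call arrays biological replicates but tie none to an animal, so p-values measure the spread between these samples. Summed marker levels are log2 of added linear values. The value 4.57 is the lowest lower quartile of any array. Figures used Python 3.11.15, pandas 2.3.3 and matplotlib 3.10.9. Alternatives were all probe sets, the mean of a gene's probe sets, a filter at the median level, a trended robust prior, no moderation, the compared arrays alone, array weights, quantile normalization again, median centring, 2 replicate blocks and leaving out each array.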

Additional observations from a re-analysis of the deposited data

How the results depend on the processing

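The 18 genes called higher on activation in wild-type cells were between 16 and 18 in every alternative that left out an array, and the 19 of knockout cells between 17 and 20. Genes called lower were fewer and less stable. In wild-type cells they numbered 5, and 3 with array quality weights, 3 with the replicate block within genotype and 3 to 6 when arrays were left out in turn. In knockout cells they numbered 5, and 3 after centring on the median and 2 to 6 when arrays were left out. The genotype comparisons called 0 genes, except 2 lower in naive cells with array quality weights and 0 to 1 lower in activated cells when arrays were left out. Taking the mean of a gene's probe sets turned Insig2 to 0.30 log2 in wild-type and 0.43 log2 in knockout cells. Same-numbered arrays had deviations correlated between -0.30 and 0.39, over 0.1 in 7 of 15 pairs. The labels do not say whether the numbers pair samples, and the main fit did not pair them. Among knockout arrays alone each deviated most like its own number in the other state (0.27, 0.087 and 0.22). In knockout cells the erythroid sum also ran in the same order in both states. Same-numbered wild-type naive and activated arrays were correlated at -0.30 and -0.18. With replicate number as a block the counts were 18 higher and 5 lower for activation of wild-type cells and 18 and 4 for knockout cells, where Mvk and Tm7sf2 lost their calls. The genotype and interaction fits called 0 genes with that block. With the replicate block within genotype, activation of knockout cells gave 18 higher and 5 lower, and the interaction fit called 0 genes. Of 527 single-gene values under alternatives in wild-type activation 20 lost a call and 2 gained it, and of 658 in knockout activation 37 lost and 14 gained it. Without a wild-type activated array that group rests on 1 array, assumed to vary like the others. The arrays give no background measure, and no value of the 33 genes lay below 4.57, the lowest lower quartile of an array.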
